A study of Mus musculus with 9 samples.

Results

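The 10 genes described here encode ligands and receptors of the tumor necrosis factor (TNF) superfamily. They were chosen by symbol from the raw read count table of an RNA-Seq study of mouse bone marrow derived macrophages (BMDMs), and each symbol matched 1 of the 53465 genes in the table. The ligands were Tnf, Tnfsf9 (4-1BBL), Tnfsf12 (TWEAK), Tnfsf13b (BAFF) and Tnfsf14 (LIGHT), and the receptors were Tnfrsf1a (TNFR1), Tnfrsf1b (TNFR2), Tnfrsf11a (RANK), Tnfrsf12a (Fn14) and Tnfrsf21 (DR6). The study asked how macrophages respond to signals released by normal and by diseased fibroblasts of the pulmonary artery adventitia. BMDMs from male wild-type C57BL/6 mice (C57bl6/J in the study's methods), grown in CSF1 at 50 ng/ml, were left untreated (UNX, n = 3) or received medium conditioned by adventitial fibroblasts of control calves (CO-CM, n = 3) or of calves with pulmonary hypertension (PH-CM, n = 3). The treatment time is 16 h in one protocol of the labels and 24 h in another. The methods of the study name a further time that lies between them. Medium from bovine fibroblasts was thus given to mouse cells, each medium was a pool from several fibroblast populations, and the medium groups share 1 UNX group. The labels do not say that libraries came from separate mice, so p-values measure the spread between these libraries only.

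TNF superfamily ligands are mostly membrane proteins that form trimers and can be cut from the cell surface, and their receptors gather adaptor proteins of the TRAF family or, where they carry a death domain, adaptors such as TRADD and FADD. The main outputs are NF-kB and MAP kinase signaling or cell death. Macrophages are a major source of TNF itself, respond to it through TNFR1 and TNFR2, and become osteoclasts when RANK is engaged by its ligand.

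The 9 libraries held 62017933 to 84314201 counted reads. Mates of a read pair appear to have been counted separately, since 81.4% to 83.8% of all counts from 1 to 19 were even. The number of fragments is then nearer to the read count divided by 2, and intervals from counting alone would be too narrow. Replicate 1 stood apart: between replicates 2 and 3 of a group the chi-square per gene was 10.6 to 17.5, and between replicate 1 and either of them it was 21.6 to 57.1. Markers of macrophages (8 of 8 genes read) summed to 11818 to 12613 CPM (counts scaled to 1e6 per library) in UNX, 19014 to 19970 in CO-CM and 21462 to 23274 in PH-CM. Most of each sum was Lyz2, at 6854 to 7556.5 CPM in UNX, 12536 to 13037 in CO-CM and 14487 to 15671 in PH-CM. In CO-CM, Csf1r, Adgre1, Cd68, Mertk and Lyz2 lay above UNX. Cd14 lay below it (158 to 189 CPM, beside 287 to 335 in UNX), and Itgam and Fcgr1 overlapped with it. Stromal markers summed to 227 to 289 CPM in UNX, 300.2 to 362 in CO-CM and 308 to 399 in PH-CM, and 8 of 8 of them had reads. B cell markers (6 of 6 read) summed to at most 2.5 CPM and neutrophil markers (7 of 8 read, Ly6g at 0) to at most 5.05. The part of these cells in the results was not tested. In bulk RNA, fewer cells that make a transcript and less of it per cell cannot be told apart.

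A gene was called changed where edgeR's quasi-likelihood test gave a Benjamini-Hochberg adjusted p (FDR) no greater than 0.05 and the groups differed 1.2-fold or more. The test ran over the 11950 genes with more than 1 CPM in at least 3 libraries. All 10 TNF superfamily genes passed that filter. With CO-CM against UNX, 10 of 10 were called, 4 higher and 6 lower, beside 57.0% of all genes tested (28.0% higher, 28.9% lower). With PH-CM against UNX, 7 were called, 3 higher and 4 lower, beside 63.0% of all genes (31.3% higher, 31.7% lower). With PH-CM against CO-CM, 4 were called, 3 higher and 1 lower, beside 27.1% of all genes (12.2% higher, 15.0% lower). Libraries of the compared groups did not overlap for 10 of the 10 genes in CO-CM against UNX, 8 in PH-CM against UNX and 6 in PH-CM against CO-CM, beside 72.0%, 77.7% and 50.2% of all genes. Such shares are high in these data, so the count of genes called says little about this family, and the direction and size for each gene carry the description. The median log2 fold change of the 10 genes was -0.47 in CO-CM against UNX, 0.01 in PH-CM against UNX and 0.01 in PH-CM against CO-CM, beside 0.00, 0.01 and -0.01 over all genes tested. The median absolute log2 fold change was 0.90, 0.88 and 0.30 for the 10 genes, and 0.36, 0.43 and 0.17 over all genes.

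**Figure D1:**
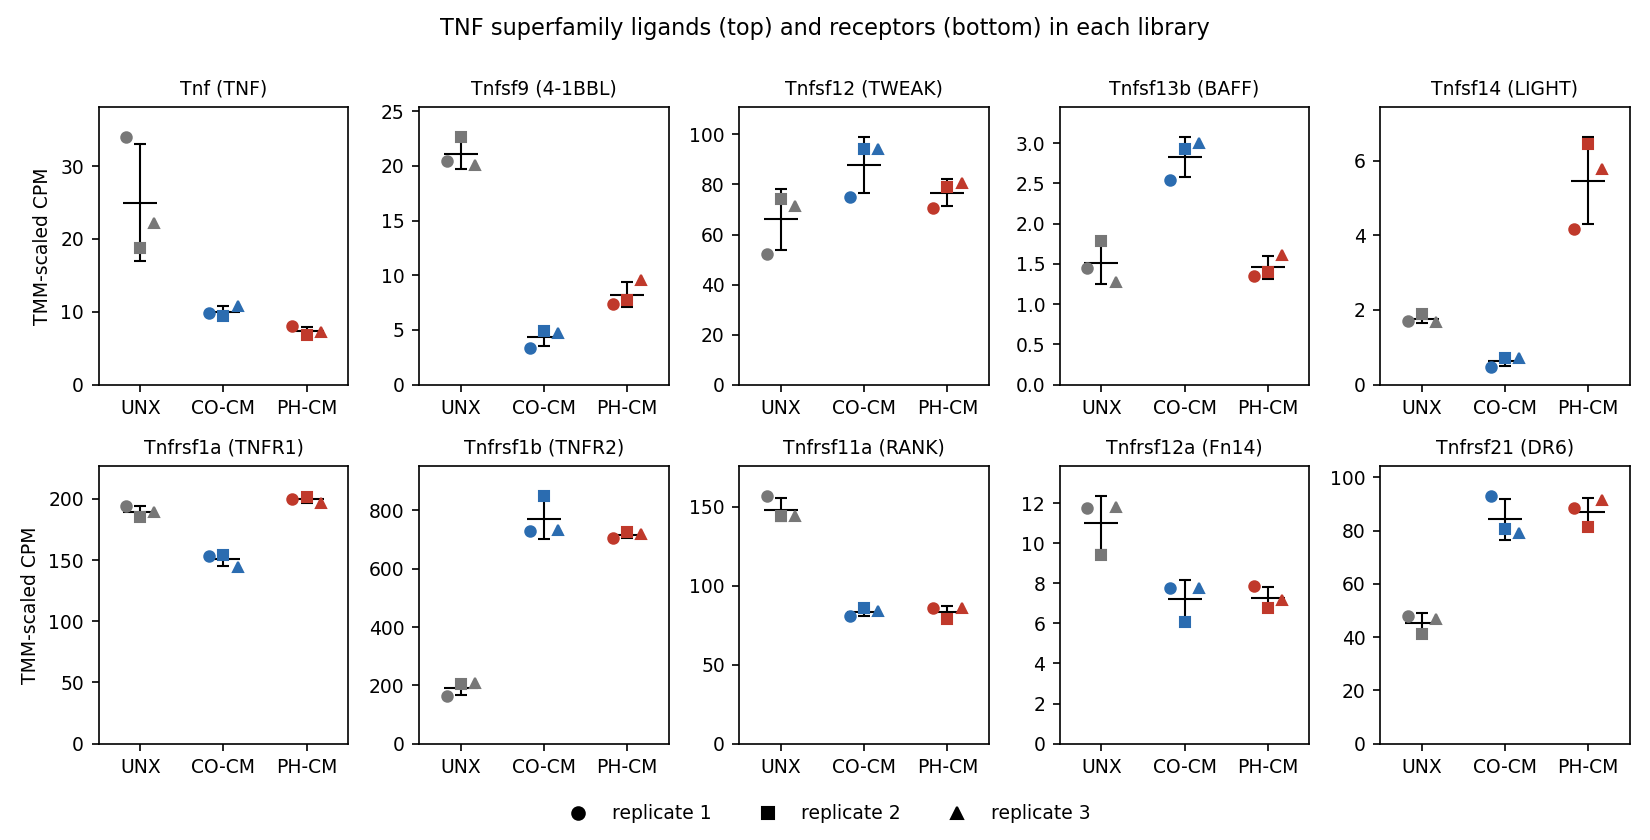
TMM-scaled CPM (y axis, linear from 0) of the 5 ligands (top) and 5 receptors (bottom) in each library, by group on the x axis. Symbols mark the replicate number, and black bars the mean and SD of 3 libraries. Tnfsf14 lay below UNX in CO-CM (0.468 to 0.718 CPM) and above it in PH-CM (4.17 to 6.44 CPM).

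Tnf, the founding cytokine of the family, lies on the minus strand of mouse chromosome 17 at chr17:35199381-35202007 (GRCm38). It was at 34.0, 18.7 and 22.2 CPM in the UNX libraries, 9.81, 9.37 and 10.8 in CO-CM and 7.97, 6.87 and 7.28 in PH-CM. All UNX libraries were above all treated ones, with UNX replicate 1 the highest, and the CO-CM libraries were above the PH-CM libraries by a narrow margin. Tnf fell by 1.76 on the log2 scale with PH-CM (SE 0.19, edgeR FDR 1.12e-05), which is 3.38-fold. With CO-CM it fell by 1.32 (SE 0.18, edgeR FDR 9.98e-05), which is 2.49-fold. Fibroblast medium of either kind thus went with less Tnf transcript than macrophages in CSF1 alone carried.

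Between the media, Tnf differed by -0.44 on the log2 scale (95% interval -0.86 to -0.02) and missed the threshold (edgeR FDR 0.095). The call depended on how the model was fitted. Under a replicate block the difference was -0.45 (edgeR FDR 0.0232), and with the 2 medium groups alone it was -0.43 (edgeR FDR 0.00782). Without UNX replicate 1 the FDR was 0.0056 and without UNX replicate 2 it was 0.047, although neither library belongs to the comparison, since the spread is shared by all groups. Over 22 alternatives the FDR lay between 0.0056 and 0.234, and 15 gave no call.

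Sequence is shown for Tnf because its promoter and its 3′ end are known control points of the gene. The promoter window from RefSeq (GRCm38.p6, minus strand, chr17:35201958-35202257) runs from 250 bases before the transcript start to 50 bases after it. Capitals mark matches on either strand to GGGNNNNNCC, a loose form of the NF-kB site, and to the TATA box TATAAA.
Tnf promoter: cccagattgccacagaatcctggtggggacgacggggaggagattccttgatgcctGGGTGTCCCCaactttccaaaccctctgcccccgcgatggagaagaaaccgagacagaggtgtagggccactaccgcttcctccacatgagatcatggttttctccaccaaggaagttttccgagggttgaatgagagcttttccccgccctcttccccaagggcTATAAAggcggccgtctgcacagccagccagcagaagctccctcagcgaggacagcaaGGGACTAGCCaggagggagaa
The window held 2 matches to the NF-kB form, which 50.8% of all 32851 mouse promoter windows of this length held at least once, and 1 TATA box, which 13.6% held. The 3′ untranslated end of Tnf carries repeats of the AU-rich nonamer TTATTTATT, the motif bound by the decay factor tristetraprolin (Zfp36). The first 30 bases around its first match, from transcript Tnf-201 of GENCODE vM21, are shown with matches in capitals.
Tnf AU-rich site: cttaTTATTTATTATTTATTTATTatttat
The 3′ end of Tnf held 5 matches, of which 3 lie whole within the bases shown. Among the 10 genes only Tnf and Tnfsf13b, with 1 match, held the nonamer in an annotated 3′ end, beside 9.3% of the 11054 tested genes that have one. A match of letters is a description and not a site of binding.

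Tnfsf9 encodes 4-1BBL, a ligand that costimulates T cells through Tnfrsf9, and lies at chr17:57105325-57107757 on the plus strand. It was at 20.5, 22.6 and 20.1 CPM in UNX, 3.36, 4.94 and 4.75 in CO-CM and 7.41, 7.76 and 9.53 in PH-CM. The 3 groups did not overlap, and CO-CM was the lowest. Tnfsf9 fell by 2.28 on the log2 scale with CO-CM (SE 0.14, edgeR FDR 3.15e-07) and by 1.36 with PH-CM (SE 0.14, edgeR FDR 7.26e-06), and was 0.92 higher in PH-CM than in CO-CM (SE 0.15, edgeR FDR 0.000716). Of its exons, 1 stretch overlaps the opposite-strand RNA gene Gm11110, and the sources used here do not state that counting used the strand. Gm11110 itself was at 5.23 ± 1.17 CPM (on the library total) in UNX, 3.29 ± 1.41 in CO-CM and 5.84 ± 1.08 in PH-CM (SD, n = 3).

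Tnfsf14 encodes LIGHT, a ligand of the herpesvirus entry mediator HVEM (Tnfrsf14) and of the lymphotoxin beta receptor (Ltbr), and lies at chr17:57189492-57194177 on the minus strand. It had 110, 142 and 144 reads in UNX, 32, 48 and 50 in CO-CM and 280, 400 and 366 in PH-CM. On the scale of CPM these were 1.70, 1.88 and 1.68 in UNX, 0.468, 0.718 and 0.703 in CO-CM and 4.17, 6.44 and 5.79 in PH-CM. The groups were far apart and in opposite directions from UNX, at a low level throughout. Tnfsf14 was 1.64 higher on the log2 scale in PH-CM than in UNX (SE 0.19, edgeR FDR 2.04e-05) and fell by 1.47 with CO-CM (SE 0.22, edgeR FDR 0.000159). Between the media the difference was 3.11 (SE 0.22, edgeR FDR 2.91e-06), or 8.65-fold, and it held under every one of the 22 alternatives, without any single library between 2.94 and 3.28. No other gene of the 10 was called in opposite directions by the 2 media.

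Because LIGHT is also made by T cells and platelets, markers of those cells are given beside it. T and NK cell markers summed to 0.0617 to 0.256 CPM in UNX, 0.299 to 0.408 in CO-CM and 2.31 to 3.04 in PH-CM. Of the 8, 5 had any read, Cd3g, Trbc1 and Ncr1 had none, Cd3d and Cd3e had 2 reads each over all libraries, and Cd2 carried the PH-CM values at 2.20 to 3.04 CPM. Megakaryocyte and erythroid markers moved in the same order as Tnfsf14, with sums of 149 to 174 CPM in UNX, 108 to 135 in CO-CM and 218 to 269 in PH-CM. Nearly all of that was Pf4, which macrophages can also express. Of these 6 markers 5 had reads, Hbb-bs was at 0, and Itga2b was at 0.21 to 0.665 CPM over all libraries. Their part in the Tnfsf14 result was not tested.

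The promoter of Tnfsf14 is shown because it differed most between the media of the 10 genes (RefSeq, GRCm38.p6, minus strand, chr17:57194132-57194431, same window). Capitals mark the NF-kB form, the AP-1 site TGANTCA and the core ACGTG of the hypoxia response element.
Tnfsf14 promoter: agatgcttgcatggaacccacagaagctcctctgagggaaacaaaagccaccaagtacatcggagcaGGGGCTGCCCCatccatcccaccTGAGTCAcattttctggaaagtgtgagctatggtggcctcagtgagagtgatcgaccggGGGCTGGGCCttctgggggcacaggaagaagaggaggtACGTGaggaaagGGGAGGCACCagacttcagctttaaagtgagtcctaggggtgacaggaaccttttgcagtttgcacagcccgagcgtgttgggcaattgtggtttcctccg
It held 4 matches to the NF-kB form, of which the first 2 overlap, 1 to the AP-1 site and 1 to the hypoxia core. Over all promoter windows 7.8% held the AP-1 site and 19.6% the hypoxia core. Windows were found for 8 of the 10 genes (Tnfsf9 and Tnfsf12 had none). Of these 8, 6 held the NF-kB form, 2 the AP-1 site (Tnfsf13b and Tnfsf14), 2 the hypoxia core (Tnfsf14 and Tnfrsf21), 2 the STAT site TTCNNNGAA (Tnfrsf1a and Tnfrsf1b) and 1 the TATA box (Tnf).

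Tnfsf13b encodes BAFF, a survival factor of B cells, and lies at chr8:10006467-10039072 on the plus strand. It was at 1.45, 1.79 and 1.28 CPM in UNX, 2.55, 2.93 and 3.01 in CO-CM and 1.35, 1.40 and 1.61 in PH-CM. CO-CM libraries were above all others, while UNX and PH-CM overlapped. Tnfsf13b was 0.91 higher on the log2 scale in CO-CM than in UNX (SE 0.16, edgeR FDR 0.000525) and 0.96 lower in PH-CM than in CO-CM (value -0.96, SE 0.16, edgeR FDR 0.00114). PH-CM against UNX gave -0.05 with a 95% interval from -0.42 to 0.33 (edgeR FDR 0.808), so a change within that interval is not excluded. The gene was read 87 to 214 times per library.

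Tnfsf12 encodes TWEAK, the ligand of Fn14, and lies at chr11:69686250-69695849 on the minus strand. It was the most abundant ligand per length. It was at 52.1, 74.4 and 71.6 CPM in UNX, 74.9, 94.2 and 94.2 in CO-CM and 70.5, 78.9 and 80.7 in PH-CM. Replicate 1 was the lowest library in each group, and the highest UNX library nearly reached the lowest CO-CM library. Tnfsf12 was 0.41 higher on the log2 scale in CO-CM (SE 0.13, edgeR FDR 0.017). That call was lost without UNX replicate 1 (0.26, edgeR FDR 0.0465, under the fold threshold), without CO-CM replicate 2 (0.36, edgeR FDR 0.061) and without CO-CM replicate 3 (0.36, edgeR FDR 0.0598). PH-CM against UNX gave 0.22 (95% interval -0.08 to 0.51, edgeR FDR 0.159). Under the replicate block the values were 0.42 for CO-CM (edgeR FDR 4.14e-05) and 0.23 for PH-CM (edgeR FDR 0.00281), the latter still under the fold threshold.

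The Tnfsf12 count is uncertain for a further reason. In the annotation the same-strand locus Tnfsfm13 overlaps all 7 exon stretches of Tnfsf12, so reads there can be split or dropped. Tnfsfm13 was at 7.94 ± 1.49 CPM (on the library total) in UNX, 11.1 ± 1.29 in CO-CM and 9.78 ± 0.853 in PH-CM (SD, n = 3), the same order as Tnfsf12.

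Tnfrsf1b encodes TNFR2, the TNF receptor without a death domain, and lies at chr4:145213463-145246870 on the minus strand. It was at 165, 203 and 206 CPM in UNX (replicate 1 the lowest), 729, 849 and 733 in CO-CM and 705, 725 and 718 in PH-CM. All 6 treated libraries were far above all 3 UNX libraries. Tnfrsf1b was 2.01 higher on the log2 scale with CO-CM (SE 0.09, edgeR FDR 3.58e-08), or 4.02-fold, and 1.90 higher with PH-CM (SE 0.09, edgeR FDR 2.73e-08), or 3.74-fold. Between the media the difference was -0.11 with a 95% interval from -0.30 to 0.09 (edgeR FDR 0.377). Among the 10 genes it had the largest rise with either medium.

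Tnfrsf1a encodes TNFR1, the death-domain receptor that most cells carry, and lies at chr6:125349362-125362484 on the plus strand. It was at 194, 185 and 189 CPM in UNX, 153, 154 and 144 in CO-CM and 200.2, 202 and 197 in PH-CM. Libraries within a group differed little, and CO-CM lay below the others. Tnfrsf1a fell by 0.33 on the log2 scale with CO-CM (SE 0.04, edgeR FDR 4.82e-05), or 1.26-fold, and was 0.41 higher in PH-CM than in CO-CM (SE 0.04, edgeR FDR 4.36e-05). PH-CM against UNX gave 0.07 (95% interval -0.02 to 0.17, edgeR FDR 0.134). The groups did not overlap there either, but the gap was small.

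The promoters of the 2 TNF receptors are shown together because the receptors bind the same ligand and their levels moved apart. Both windows are from RefSeq (GRCm38.p6), Tnfrsf1a at chr6:125349473-125349772 on the plus strand and Tnfrsf1b at chr4:145246821-145247120 on the minus strand. The whole Tnfrsf1a window lies downstream of the gene start in GENCODE vM21 (125349362), so its matches are not upstream of that start. Capitals mark the NF-kB form and the STAT site.
Tnfrsf1a promoter: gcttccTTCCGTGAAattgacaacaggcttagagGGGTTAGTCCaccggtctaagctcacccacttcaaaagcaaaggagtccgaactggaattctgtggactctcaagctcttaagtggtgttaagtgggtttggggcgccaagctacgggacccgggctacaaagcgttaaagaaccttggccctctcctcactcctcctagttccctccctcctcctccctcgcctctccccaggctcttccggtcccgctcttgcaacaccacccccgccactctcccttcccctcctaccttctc
Tnfrsf1b promoter: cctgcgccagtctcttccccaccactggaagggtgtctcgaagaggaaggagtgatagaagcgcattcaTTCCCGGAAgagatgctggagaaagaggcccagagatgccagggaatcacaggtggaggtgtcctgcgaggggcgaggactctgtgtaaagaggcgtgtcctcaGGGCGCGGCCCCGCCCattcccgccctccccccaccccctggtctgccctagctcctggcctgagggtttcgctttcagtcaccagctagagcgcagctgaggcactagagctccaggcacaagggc
Each held 1 STAT site, which 8.3% of all windows held. Tnfrsf1a held 1 match to the NF-kB form and Tnfrsf1b 3, which overlap each other.

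The ratio of the receptors within a library does not depend on scaling between libraries, and it was computed from the deposited RPKM (reads per kilobase of exon, scaled to the library total) after the values had been seen. Tnfrsf1b over Tnfrsf1a was 0.575, 0.744 and 0.741 in UNX, 3.23, 3.74 and 3.45 in CO-CM and 2.39, 2.44 and 2.48 in PH-CM. The order of the receptors was thus turned round: TNFR1 transcript exceeded TNFR2 transcript per length in every UNX library and the reverse held in every treated library. The mean ratio was 0.686 ± 0.0966 in UNX, 3.47 ± 0.26 in CO-CM and 2.44 ± 0.0431 in PH-CM (SD, n = 3). The groups did not overlap in the ratio. Each pair of groups then had to give an exact two-sided permutation p of 0.1, the smallest that 3 against 3 libraries allow. That p adds nothing to the values. The ratio of PH-CM to CO-CM was 0.703, with Tnfrsf1a the called difference between the media and Tnfrsf1b not called.

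**Figure D2:**
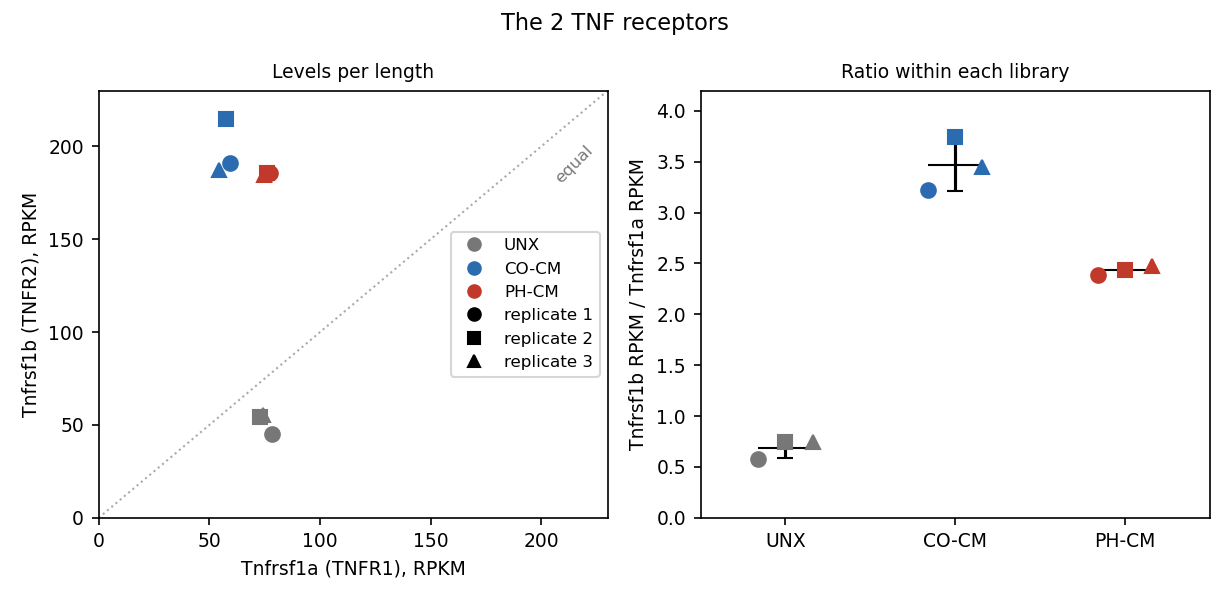
Left, Tnfrsf1b against Tnfrsf1a in RPKM for each library (colors mark the group, symbols the replicate number, the dotted line equal levels). Right, their ratio within each library with mean and SD. UNX libraries lie below the line (0.575 to 0.744) and treated libraries above it (2.39 to 3.74).

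Tnfrsf11a encodes RANK, the receptor that drives osteoclast formation, and lies at chr1:105780718-105847981 on the plus strand. It was at 157, 144 and 144 CPM in UNX, 80.7, 85.9 and 83.6 in CO-CM and 85.6, 79.1 and 85.8 in PH-CM. Treated libraries were all below UNX, and the media overlapped. Tnfrsf11a fell by 0.83 on the log2 scale with CO-CM (SE 0.05, edgeR FDR 2.95e-07) and by 0.83 with PH-CM (SE 0.05, edgeR FDR 2e-07). The interval of the difference between the media ran from -0.11 to 0.12.

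Tnfrsf12a encodes Fn14, the receptor for TWEAK, and lies at chr17:23675445-23677468 on the minus strand. It was at 11.8, 9.43 and 11.8 CPM in UNX, 7.78, 6.06 and 7.76 in CO-CM and 7.87, 6.75 and 7.19 in PH-CM. UNX lay above both media, with replicate 2 the lowest library in each group. Tnfrsf12a fell by 0.61 on the log2 scale with CO-CM (SE 0.12, edgeR FDR 0.00131) and by 0.60 with PH-CM (SE 0.12, edgeR FDR 0.00133). The interval between the media ran from -0.27 to 0.29. Fn14 is also found on stromal cells, whose markers summed to more in both media than in UNX (values above). Of these markers, Acta2, Col3a1, Dcn, Pdgfra and Lum overlapped between UNX and CO-CM. Col1a1, Dcn and Lum overlapped between UNX and PH-CM. The part of stromal cells in the Tnfrsf12a result was not tested.

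Tnfrsf21 encodes DR6, a death-domain receptor, and lies at chr17:43016555-43089189 on the plus strand. It was at 47.8, 41.3 and 46.9 CPM in UNX, 92.9, 80.4 and 79.2 in CO-CM and 88.5, 81.5 and 91.3 in PH-CM. All treated libraries were above UNX and the media overlapped. Tnfrsf21 was 0.89 higher on the log2 scale with CO-CM (SE 0.08, edgeR FDR 3.37e-06) and 0.94 higher with PH-CM (SE 0.08, edgeR FDR 1.61e-06). The interval between the media ran from -0.12 to 0.22.

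**Figure D3:**
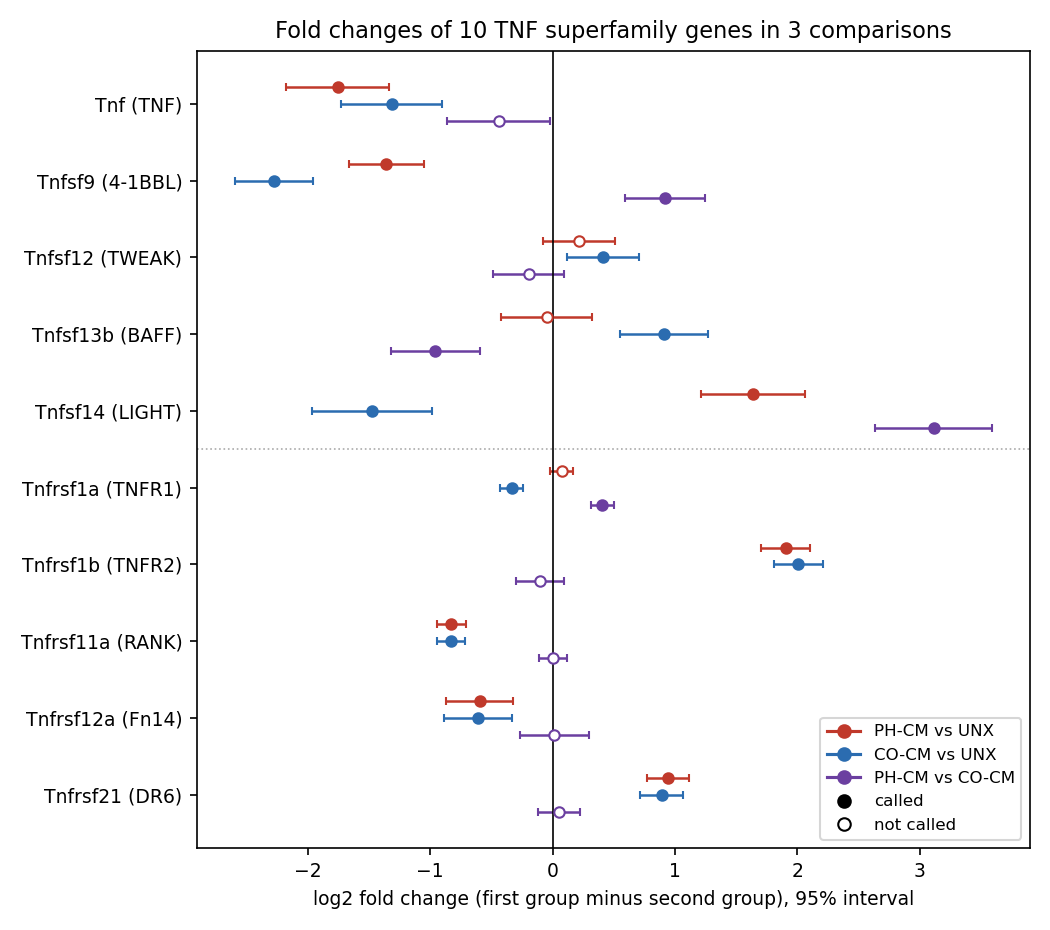
log2 fold change (x axis) of each gene in 3 comparisons, with 95% intervals from the edgeR fit of all 9 libraries. Filled points were called. Tnfsf14 is the one gene with points on both sides of 0 for the 2 media against UNX that were both called (1.64 and -1.47), and 4 of the 5 receptors lie near 0 between the media.

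Of the 5 ligands, 3 were called in PH-CM against CO-CM (Tnfsf9 and Tnfsf14 higher, Tnfsf13b lower) and 1 of the 5 receptors (Tnfrsf1a higher). Among all genes 27.1% were called, and whether ligands and receptors differ in this was not tested.

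Levels of different genes were compared per length, on the deposited RPKM. In UNX the order from the top was Tnfrsf1a at 75.3 ± 2.78 RPKM, Tnfrsf1b at 51.5 ± 5.59, Tnfsf12 at 44.7 ± 7.69, Tnfrsf11a at 25.4 ± 1.64, Tnfsf9 at 17.6 ± 1.09, Tnf at 15.7 ± 5.28, Tnfrsf21 at 12.9 ± 1.11, Tnfrsf12a at 11.8 ± 1.51, Tnfsf14 at 0.969 ± 0.0589 and Tnfsf13b at 0.226 ± 0.0382 (SD, n = 3). Neighbors whose libraries overlapped were Tnfrsf1b and Tnfsf12, Tnfsf9 and Tnf, Tnf and Tnfrsf21, and Tnfrsf21 and Tnfrsf12a. Membrane receptors for TNF were therefore above Tnf itself in every library.

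In CO-CM the order opened with Tnfrsf1b at 197 ± 14.9 RPKM, followed by Tnfrsf1a at 56.9 ± 2.51 and Tnfsf12 at 56.7 ± 6.26, whose libraries overlapped. Tnf was at 5.98 ± 0.467 RPKM there, Tnfsf9 at 3.46 ± 0.626, and Tnfsf13b at 0.403 ± 0.0289 with Tnfsf14 at 0.331 ± 0.0685, whose libraries overlapped. In PH-CM Tnfrsf1b was at 185 ± 0.675 RPKM, Tnfrsf1a at 76.1 ± 1.54, Tnfsf12 at 50.0 ± 2.92, Tnfsf9 at 6.61 ± 0.866, Tnf at 4.45 ± 0.399, Tnfsf14 at 2.90 ± 0.586 and Tnfsf13b at 0.209 ± 0.0185. Tnf was thus above Tnfsf9 in CO-CM and below it in PH-CM, with no overlap of libraries in either. The place of Tnfrsf12a is uncertain, since its RPKM rest on an exon length of 963 bases where the annotation used here gives 1932. With that length it would be at 5.86 instead of 11.8 in UNX, and at 3.72 instead of 7.46 in PH-CM, where it would fall below Tnfsf9 and Tnf.

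**Figure D4:**
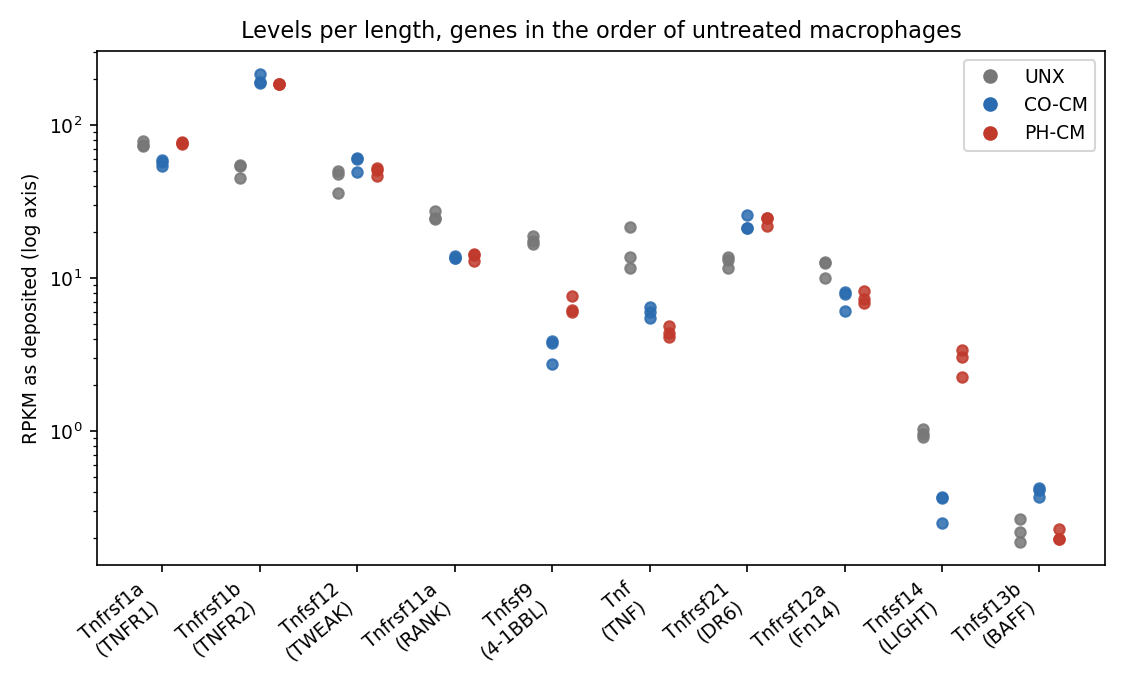
RPKM as deposited (y axis, log scale) of each gene in each library, with genes on the x axis in the order of their UNX means and colors for the groups. Tnfrsf1b stands at the top in both media (197 and 185 RPKM), and Tnfsf14 and Tnfsf13b at the bottom in all groups.

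Partners of the 10 genes were read as well. Tnfrsf14 (HVEM), the receptor of LIGHT, was at 8.24 CPM in UNX, 21.5 in CO-CM and 27.6 in PH-CM, and was 1.38 higher on the log2 scale with CO-CM (edgeR FDR 4.32e-06), 1.74 higher with PH-CM (edgeR FDR 5.59e-07) and 0.36 higher in PH-CM than in CO-CM (edgeR FDR 0.0367). Ltbr, the other LIGHT receptor, was at 92.0, 89.6 and 104 CPM and was not called in any comparison. In PH-CM it was 0.18 higher than in UNX and 0.22 higher than in CO-CM (edgeR FDR 0.00101 and 0.000944), both under the fold threshold. So LIGHT and HVEM transcripts were both higher in PH-CM, while in CO-CM Tnfsf14 was lower and Tnfrsf14 higher than in UNX. Of the BAFF receptors, Tnfrsf13b (TACI) was at 34.9, 33.7 and 27.4 CPM in UNX, CO-CM and PH-CM, called lower in PH-CM against UNX (-0.35, edgeR FDR 0.000141) and against CO-CM (-0.30, edgeR FDR 0.00136). Tnfrsf13c had no read in any library, which allows up to 3 reads, or 0.0484 CPM in the smallest one, and Tnfrsf17 had 32 reads over all 9. Tnfrsf9, the receptor of 4-1BBL, and Tnfsf11, the ligand of RANK, were below the filter with 336 and 138 reads over the 9 libraries.

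Other genes of the pathway were taken from 6 lists of 86 genes, of which 59 passed the filter. With PH-CM against UNX 29 were called higher and 9 lower (median log2 fold change 0.27), with CO-CM against UNX 22 and 5 (median 0.13), and with PH-CM against CO-CM 14 and 7 (median 0.12). In that order 64.4%, 45.8% and 35.6% of the 59 were called, beside 63.0%, 57.0% and 27.1% of all genes tested. The medians of all genes were near 0.

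Of 13 other ligands, 2 passed the filter, of which Tnfsf8 was not called and Tnfsf13 (APRIL) was 0.75 higher with CO-CM (edgeR FDR 0.00372). Of 23 other receptors, 11 passed, and 5 rose and 5 fell with PH-CM, 5 rose and 4 fell with CO-CM, and 6 were higher and 2 lower in PH-CM than in CO-CM. Called were thus 90.9%, 81.8% and 72.7% of those 11, beside 63.0%, 57.0% and 27.1% of all genes. Cd40, the costimulatory receptor that T cells engage, fell by 3.19 on the log2 scale with PH-CM (edgeR FDR 4.72e-08) and fell by 1.56 with CO-CM (edgeR FDR 5.5e-06), from 11.2 CPM in UNX to 3.81 in CO-CM and 1.23 in PH-CM. Tnfrsf8 (CD30) was 2.36 higher with PH-CM (edgeR FDR 8.57e-05) and 2.47 with CO-CM (edgeR FDR 7.16e-05). Its means were 0.386, 2.19 and 2.02 CPM in UNX, CO-CM and PH-CM, so it passed the filter through the treated groups. Tnfrsf26, one of a cluster of similar mouse decoy receptors whose reads may be shared, was 1.38 higher with PH-CM and 0.88 higher in PH-CM than in CO-CM (edgeR FDR 1.99e-06 and 0.000214).

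Genes that act on the members' products moved as follows. Of 6 genes for the shedding of ligands and receptors, 4 rose and none fell with PH-CM and 3 rose and none fell with CO-CM. Called were thus 66.7% and 50.0%, beside 63.0% and 57.0% of all genes. Furin, a protease that matures TNF family ligands such as BAFF and TWEAK, was 1.00 and 1.04 higher with PH-CM and CO-CM (edgeR FDR 1.51e-08 and 2.11e-08), and Timp3, the inhibitor of the TNF sheddase ADAM17, was 1.05 and 0.63 higher (edgeR FDR 3.53e-06 and 0.000202). Adam17 itself was 0.28 and 0.58 higher (edgeR FDR 0.00149 and 1.06e-05). Of 8 genes for the decay or stability of Tnf mRNA, 6 rose and 1 fell with PH-CM and 4 rose and 1 fell with CO-CM. Called were 87.5% and 62.5% of them, beside the same shares of all genes. Zfp36, whose product binds AU-rich motifs, was 1.44 and 1.25 higher (edgeR FDR 5.81e-06 and 2.12e-05), and Zc3h12a, an RNase for inflammatory mRNAs, was 1.74 and 1.33 higher (edgeR FDR 5.04e-08 and 5.17e-07). Elavl1, which protects AU-rich mRNAs, fell by 0.59 and 0.61 (edgeR FDR 2.78e-05 and 2.54e-05). Zfp36l1 was 1.02 higher in PH-CM than in CO-CM (edgeR FDR 0.00149). The part of these genes in the Tnf result was not tested.

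Of 26 receptor-proximal signaling genes, 9 rose and 2 fell with PH-CM, 4 rose and none fell with CO-CM, and 5 were higher and 3 lower in PH-CM than in CO-CM. Called were thus 42.3%, 15.4% and 30.8%, beside 63.0%, 57.0% and 27.1% of all genes. Against UNX the share called was therefore below that of all genes. Birc3 (cIAP2), which binds TRAF2, led with 1.52 for PH-CM and 1.00 for CO-CM (edgeR FDR 2.87e-07 and 8.53e-06). The 2 that fell with PH-CM, named after their values were seen, were Tnfaip3 and Fadd (-0.41 and -0.40, edgeR FDR 0.000504 and 9.06e-05). Traf1, an adaptor of TNFR2, was 0.59 higher with PH-CM and 0.48 higher in PH-CM than in CO-CM (edgeR FDR 0.00235 and 0.0169). Of 10 osteoclast genes downstream of RANK, 6 passed the filter. Of those, 5 rose and 1 fell with PH-CM and 5 rose and none fell with CO-CM, while Tnfrsf11a itself fell with both. All 6 were thus called with PH-CM and 83.3% with CO-CM, beside 63.0% and 57.0% of all genes. In PH-CM against CO-CM none was higher and 1 was lower, which is 16.7% beside 27.1% of all genes. Whether the fall of Tnfrsf11a bears on these genes was not tested. Acp5 (TRAP) rose with PH-CM and with CO-CM (edgeR FDR 0.000565 and 0.00143), from a mean of 1.03 CPM in UNX to 3.17 and 2.80. Its UNX libraries were at 0.88 to 1.26 CPM, so Acp5 passed the filter through the treated groups. Ctsk (cathepsin K) was 1.44 and 1.07 higher with PH-CM and CO-CM (edgeR FDR 2e-04 and 0.00175). Itgb3 was 2.15 higher with CO-CM and 1.68 lower in PH-CM than in CO-CM (value -1.68, edgeR FDR 3.8e-08 and 9.48e-07). Mmp9, named after its values were seen, was the gene that fell with PH-CM (-0.48, edgeR FDR 0.0376). The 4 genes under the filter were not tested. Of these, Dcstamp, needed for the fusion of osteoclast precursors, was named after its values were seen. Its means were 1.46 CPM in UNX, 0.586 in CO-CM and 0.292 in PH-CM. Oscar and Ocstamp had 43 and 28 reads over all libraries, and Calcr had 0. Several of the 10 osteoclast genes are also expressed by macrophages that are not osteoclasts.

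**Figure D5:**
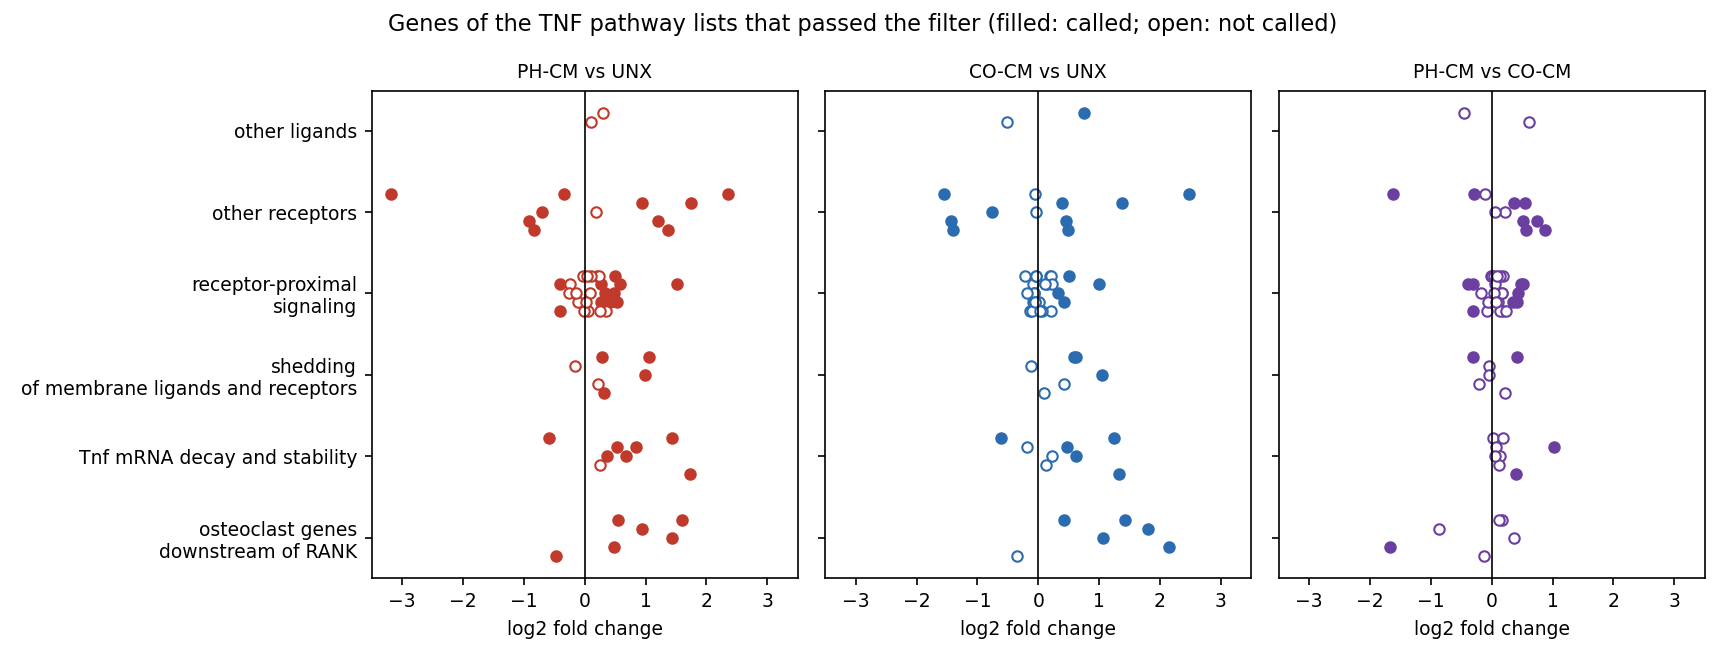
log2 fold changes (x axis) of the 59 pathway genes that passed the filter, by list (rows) and comparison (panels). Filled points were called. In PH-CM against UNX 29 filled points lie above 0 and 9 below.

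By likeness of pattern, the genes nearest to each member over the 9 libraries (Pearson's r of log2 CPM, a description) were Wdr77 for Tnf (r = 0.994), Snrpa for Tnfsf9 (0.989), Spg21 for Tnfsf12 (0.986), Ccdc91 for Tnfsf13b (0.971) and Cd300ld for Tnfsf14 (0.997). For the receptors they were Syn1 for Tnfrsf1a (0.992), Calcoco1 for Tnfrsf1b (0.998), Rbbp4 for Tnfrsf11a (0.997), Exosc1 for Tnfrsf12a (0.991) and Adam33 for Tnfrsf21 (0.995). The points share their libraries and their scaling, and 3 groups alone can give a high r. Tnfsf13, the neighbor of Tnfsf12 on chromosome 11, was second nearest to Tnfsf12 (0.975), and the loci lie so close that reads at their shared locus Tnfsfm13 may belong to either.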

How the data were processed

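Per the labels, RNA from 9 BMDM cultures (UNX, CO-CM and PH-CM, n = 3 each) was sequenced as paired-end mRNA-Seq. The authors used FastQC and AfterQC for read quality, STAR for alignment to GRCm38 and featureCounts 1.6.2 for the raw counts per gene that they deposited. They also deposited RPKM values made from those counts with edgeR 3.14, and these follow the library total without a further scaling factor. The deposited fold changes and p-values of the authors' own 3 comparisons were not used.

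The 10 genes, the 6 pathway lists and the tests were chosen with earlier results of these data known. Genes other than the 10 were matched to names by Ensembl ID (53274 of 53465 matched). Every one of the 10 is named. Of each list, up to 4 called genes with the largest change per comparison could be named, and binding partners of the 10 regardless of their values. Outside that rule, Tnfsf8, Tnfaip3, Fadd, Mmp9 and the osteoclast genes under the filter were also named. Within-library receptor ratios, the AU-rich search and the fit of replicates 2 and 3 alone were chosen after seeing the data.

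Raw counts were scaled by TMM and tested in edgeR 4.0.16 (R 4.3.3) by glmQLFit and glmQLFTest in 1 fit of all 9 libraries with a mean per group. Genes needed more than 1 CPM in at least 3 libraries. Intervals cover 95%. Alternatives were edgeR's exact test, DESeq2 1.42.0, other scalings and filters, other fold thresholds, counts divided by 2, a replicate block, the compared groups alone and each library left out. Libraries with the same replicate number deviated together from their group means (r 0.276 to 0.484 in 9 pairs, beside -0.376 to 0.042 in 18 pairs with different numbers). Equal numbers were read as pairs in the replicate block alone. The main fit, which gave every FDR quoted without another setting, and the permutation tests of the receptor ratio did not use the pairs. Exon lengths and positions are from GENCODE vM21 (GRCm38).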

Additional observations from a re-analysis of the deposited data

How the results depend on the processing

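Of 630 recomputed member values (10 genes, 3 comparisons, 21 alternatives without the fold threshold of 2), 607 kept their direction and their side of the threshold. With a fold threshold of 2, the 10 genes gave 4 calls in PH-CM against UNX, 4 in CO-CM against UNX and 1 in PH-CM against CO-CM, the pathway lists 11, 13 and 3, and all genes 2153, 1655 and 612. The replicate block gave 7, 10 and 5 member calls, the fifth in PH-CM against CO-CM being Tnf, and changed no other member call. Replicates 2 and 3 alone gave 7, 10 and 5. Sign changes fell on values that were not called. For Tnfrsf11a between the media they were -0.0042 with DESeq2 and with filterByExpr, -0.0043 with DESeq2 size factors, -0.0356 with upper-quartile factors, -0.0032 with no filter, -0.0343 with replicates 2 and 3, and -0.0216 to 0.0385 without single libraries. For Tnfrsf12a between the media they were -0.0245 with upper-quartile factors and -0.0961 to 0.0721 without single libraries. For Tnfsf13b in PH-CM against UNX the range without single libraries was -0.1637 to 0.0911. The cause was not tested. Under the scalings tried, the median log2 fold change of all genes lay between -0.069 and 0.066. Of 30 group levels per length, 24 moved by less than 1 SD with annotated exon lengths, and the 6 that moved more were those of Tnfrsf12a and Tnfrsf21. Low counts of Tnfsf13b and Tnfsf14 limit what could be detected for them.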
